A study of Homo sapiens with 17 samples.

Results

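The 50 keratin genes considered here are the RefSeq protein-coding genes of GRCh38 whose symbol is KRT followed by digits only. They lie in a cluster of 24 genes on chromosome 12, which includes KRT8 and KRT18, and a cluster of 26 genes on chromosome 17. Peaks were members when their summit lay within 20 kb of one of these genes. That rule found 77 peaks in the 8 combined peak lists, and overlapping peaks merged into 33 sites, of 108696 merged sites on chromosomes 1 to 22 and X. The choice of genes used no measured value.

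U2OS, an osteosarcoma line of human mesenchymal origin, was used for Flag ChIP-seq in stable derivatives that express a Flag-tagged factor from a Tet-on construct. FOXA1, FOXA2 and FOXA3 were each expressed at full length and with the CTD, the carboxy-terminal domain, deleted. SOX2 was expressed alone or joined to the CTD of FOXA2. All 8 groups received 500 ng/ml doxycycline for 4 days and had 2 biological replicates, and the study also has 1 input sample. The labels do not say whether a line is a single clone. Each group is represented by 1 peak list that combines both replicates, so no difference between groups has a replicate test, and intervals cover counting error over peaks only. The depth of the libraries is unknown. All differences between groups below are therefore between lists.

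Keratins are the intermediate filament proteins of epithelial cells. An acidic type I keratin pairs with a basic type II keratin, and most type II genes lie on chromosome 12 and type I genes on chromosome 17, with the type I gene KRT18 beside its partner KRT8. Each epithelium uses its own pairs, and mesenchymal cells generally rely on vimentin instead. FOXA proteins are forkhead factors of endodermal and glandular epithelia able to bind closed chromatin, as is SOX2, an HMG-box factor of stem and progenitor cells. Peaks show where the Flag-tagged protein was recovered, and RNA was not measured in the files used here.

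Few of the available sequences bear on the peaks. RefSeq promoter windows of GRCh38.p14, which run from 250 bases before to 50 after a start, were matched for 32 of the 50 genes, in 36 windows. A peak overlapped 0 of these 36 windows. The nearest case was KRT4, a keratin of the oral and oesophageal lining, where the FOXA3 peak began 5 bases beyond the window. For KRT10, the type I partner of KRT1 in differentiating epidermis, 446 bases lay between the stretch printed here and the nearest peak, which is inside the gene. The promoter window of KRT86-AS2, a noncoding RNA gene overlapping KRT86, lay wholly within a peak of FOXA1 at full length. The 250 bases before the start of each are shown 5′ to 3′ because they are the start regions closest to a member peak, with matches to the searched motifs in capitals. KRT4 spans chr12:52814117-52814366, KRT10 chr17:40822615-40822864 and KRT86-AS2 chr12:52279157-52279406, all on the minus strand.
KRT4: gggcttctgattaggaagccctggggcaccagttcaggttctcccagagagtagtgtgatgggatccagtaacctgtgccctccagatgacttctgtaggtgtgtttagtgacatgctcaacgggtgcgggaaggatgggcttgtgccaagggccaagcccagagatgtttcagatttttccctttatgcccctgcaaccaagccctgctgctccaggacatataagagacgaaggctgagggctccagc
KRT10: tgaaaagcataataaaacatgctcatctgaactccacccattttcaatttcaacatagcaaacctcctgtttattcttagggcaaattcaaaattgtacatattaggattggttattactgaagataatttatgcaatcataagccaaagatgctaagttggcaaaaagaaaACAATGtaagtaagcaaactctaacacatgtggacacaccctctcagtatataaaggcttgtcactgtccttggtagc
KRT86-AS2: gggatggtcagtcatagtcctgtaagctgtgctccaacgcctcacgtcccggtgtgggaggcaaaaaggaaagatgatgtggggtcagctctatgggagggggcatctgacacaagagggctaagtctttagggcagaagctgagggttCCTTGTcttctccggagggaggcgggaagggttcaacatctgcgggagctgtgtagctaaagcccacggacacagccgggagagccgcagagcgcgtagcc

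Motifs of 3 kinds were searched on both strands of the 300-base windows. The forkhead core TGTTTAC occurred in 1 of the 36 keratin windows, that of KRT40, against 3.42% of all 35116 windows. With any base at its second position (TNTTTAC, which takes in the first form) it occurred in 4 keratin windows, or 11.1%, against 10.8% of all. The SOX core ACAANG occurred in 12 keratin windows, or 33.3%, against 35.5%. The AP-1 site TGANTCA occurred in 0 keratin windows, against 7.71% of all. In the stretches printed, KRT10 had the letters of a SOX core from base 173 and KRT86-AS2 from base 150, and KRT4 had no match. A match is a string of letters only, and the sequence under the other peaks was not analysed here.

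Fewer keratin genes had a nearby FOXA1 or FOXA2 peak than protein-coding genes in general. With FOXA1 at full length 22 of 50 keratin genes (44.0%) had a peak summit within 20 kb, against 55.6% of all 19974 protein-coding genes. After deletion of the FOXA1 CTD it was 21 genes (42.0%) against 54.0%. FOXA2 at full length had 15 genes (30.0%) against 59.5%, and without its CTD 22 genes (44.0%) against 61.1%. For FOXA3 the share was near the background, with 8 genes (16.0%) against 16.2% at full length and 10 genes (20.0%) against 18.4% without the CTD. SOX2 had 0 genes against 0.556%, and the fusion 3 genes (6%) against 17.9%. Over any of the 8 lists, 33 keratin genes (66.0%) had a peak, against 78.7% of all protein-coding genes.

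Keratin genes are short, with a median length of 7499 bp against 24171 bp for all protein-coding genes, and neighbouring windows overlap, so densities were also compared. The 50 windows merge into 8 stretches of 1405 kb in all. FOXA1 at full length had 11.4 peaks per Mb of keratin window (exact Poisson 95% interval 6.51 to 18.5), against 13.7 per Mb in the windows of all protein-coding genes. After CTD deletion it had the same 11.4 (6.51 to 18.5) against 17. FOXA2 at full length had 8.54 (4.41 to 14.9) against 16.3, the one FOXA1 or FOXA2 list whose interval lay below the background. FOXA2 without its CTD had 12.1 (7.05 to 19.4) against 18.9. FOXA3 stood the other way, with 4.27 (1.57 to 9.30) against 1.99 at full length and 5.69 (2.46 to 11.2) against 2.35 without the CTD, whose interval lay just above the background. All 6 full-length FOXA3 keratin peaks are copied rows of the CTD-deleted list, so these FOXA3 lists are not separate observations. Peaks near each other are not independent, so these intervals are too narrow.

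**Figure D1:**
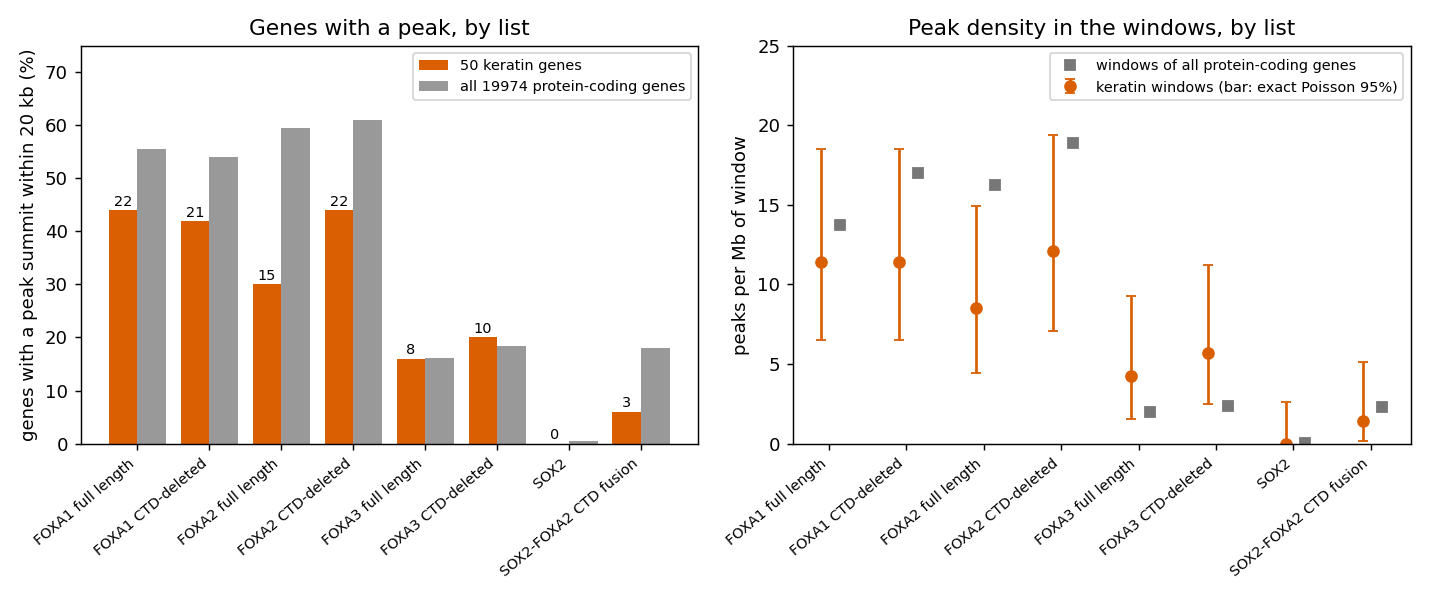
Left, percent of genes with a peak summit within 20 kb in each list, for the 50 keratin genes (orange, with their number) and all protein-coding genes (grey). Right, peaks per Mb of window, with exact Poisson 95% intervals for the keratin windows; the FOXA1 and FOXA2 points lie below the grey squares and the FOXA3 points above them.

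The per-list backgrounds for the counts by role that follow are the percentages given above, 55.6% and 54.0% for FOXA1, 59.5% and 61.1% for FOXA2, 16.2% and 18.4% for FOXA3 and 17.9% for the fusion. With 1 to 15 genes a role, the counts are descriptions, and differences between roles were not tested. All 5 keratins of simple epithelia had a peak in at least 1 list, against 78.7% of all protein-coding genes, inside the gene for KRT7, KRT8 and KRT18 and outside it for KRT19 and KRT20. FOXA1 at full length reached 5 of them and without the CTD 4. FOXA2 reached 2 at full length and 4 without the CTD, and FOXA3 2 and 4. The intragenic KRT7 site, chr12:52238679-52240443, was in all 4 FOXA1 and FOXA2 lists. Its −log10 p in the replicates was 4.54 and 16.0 with FOXA1, 8.31 and 22.3 with CTD-deleted FOXA1, 8.41 and 10.0 with FOXA2, and 8.60 and 14.8 with CTD-deleted FOXA2. By the lower of its 2 values, hereafter its strength, the peak ranked 631 of 45076 in the FOXA2 full-length list and 13236 of 37532 in the FOXA1 full-length list. The FOXA2 full-length peak was 1728 bp wide and its summit lay 785 bp from the farthest of the other summits.

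A second KRT7 site lay 2851 bp outside the gene, at chr12:52230021-52230951, over the pseudogene TMT1AP1. It was found with CTD-deleted FOXA1 (2.96 and 12.5), FOXA2 (2.96 and 3.34), CTD-deleted FOXA2 (4.77 and 4.79) and CTD-deleted FOXA3 (5.36 and 13.5). It was absent from the full-length lists of FOXA1 and FOXA3. The 4 summits lay within 24 bp of each other.

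KRT18 had a site inside the gene, 1093 bp from its low-coordinate end, at chr12:52949701-52950170. Its −log10 p was 8.10 and 16.4 in the FOXA3 lists and 4.77 and 6.61 with CTD-deleted FOXA2. Neither FOXA1 list nor the FOXA2 full-length list held it. The FOXA3 peak also spans the high-coordinate end of KRT8, whose annotation overlaps KRT18. KRT8 had 2 further sites within the gene, found with FOXA1 only among the 8 lists. The site at chr12:52937723-52938439 was weak in both FOXA1 lists, with 3.28 and 5.28 at full length and 2.62 and 5.14 without the CTD. The site at chr12:52899968-52900790, with 4.99 and 8.48, was in the full-length list alone.

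KRT20, a keratin of intestinal epithelium and urothelium, had a peak 5835 bp away with FOXA1 at full length alone (3.45 and 4.38). Its second site lay 16973 bp away at chr17:40901945-40902571. The value was 3.23 and 7.38 with CTD-deleted FOXA1, 2.44 and 3.84 with FOXA2, 6.19 and 6.78 with CTD-deleted FOXA2, and 5.21 and 12.8 with CTD-deleted FOXA3. These 4 summits lay within 9 bp of each other. As at the outer KRT7 site, the lists were all 3 CTD-deleted FOXA lists and FOXA2 at full length. The CTD-deleted FOXA3 peaks at these sites were among the weakest of their list by strength. They ranked 6444 of 6813 near KRT7 and 6558 of 6813 near KRT20. The shorter FOXA3 full-length list mostly repeats rows of that list, so its lack of both sites gives no comparison of the CTD. KRT19, a type I keratin of ductal epithelia, had a single weak peak 2602 bp away with FOXA1 at full length (2.55 and 6.34), shared with its neighbours KRT15 and KRT13.

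Among the 10 stratified type II keratins, 9 had a peak in at least 1 list, against 78.7% of all protein-coding genes, and KRT76, a keratin of the palate, had none. CTD-deleted FOXA2 reached 9, both FOXA3 lists 6, both FOXA1 lists 5, FOXA2 at full length 4 and the fusion 1. The most widely shared site of all 33 lay between KRT3, a keratin of the cornea, and KRT4, at chr12:52800671-52801443, 4919 bp from KRT3. All 6 FOXA lists held it, with summits within 86 bp of each other. Its −log10 p was 2.55 and 10.8 with FOXA1, 4.34 and 8.30 with CTD-deleted FOXA1, and 4.01 and 5.49 with FOXA2. It was 11.1 and 16.9 with CTD-deleted FOXA2, and 12.3 and 20.7 in both FOXA3 lists. By strength it was the top keratin peak of CTD-deleted FOXA2 (rank 1100 of 53415) and of CTD-deleted FOXA3 (863 of 6813), and among the weakest peaks of FOXA1 at full length (37160 of 37532).

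Next to it, the site upstream of KRT4 at chr12:52814372-52815156 was in 5 lists, all FOXA lists except FOXA2 at full length. Its summits lay 469 to 529 bp upstream of the KRT4 start whose promoter is printed above. Values were 4.81 and 6.09 with FOXA1, 4.99 and 6.87 with CTD-deleted FOXA1, 3.63 and 4.72 with CTD-deleted FOXA2, and 6.95 and 8.24 with FOXA3. Of the 32 genes with a RefSeq promoter window, 3 (9.38%) had a summit of any list within 2 kb of the start, against 30.7% of 15812 protein-coding genes. The other two were KRT10 and KRT27.

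The FOXA3 lists alone held 3 sites in this stretch of chromosome 12. They lay 1538 bp from KRT77, a keratin of sweat ducts (6.66 and 8.00), 3188 bp from KRT3 (7.90 and 13.7) and within KRT79 (8.99 and 11.5). FOXA1 and FOXA2 had no listed peak there in lists of 37532 to 53415 peaks, against 6130 and 6813 for FOXA3. A site 14337 bp from KRT78 went the other way: all 4 FOXA1 and FOXA2 lists held it at strengths of 4.15 to 5.80, and FOXA3 did not. KRT5, the type II keratin of basal epidermis, had 1 site 14312 bp away and 7006 bp from KRT6A, in both FOXA2 lists (2.38 and 2.60 at full length, 2.58 and 2.96 without the CTD). KRT1, which replaces KRT5 as epidermal cells differentiate, had a weak site 245 bp away, and KRT2 one 1222 bp away. Both were held by CTD-deleted FOXA2 alone, at strengths of 2.49 and 2.34. KRT80 had 3 sites outside the gene, 1 of FOXA1 at full length, 1 of both FOXA1 lists and 1 of CTD-deleted FOXA2 and the fusion.

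**Figure D2:**
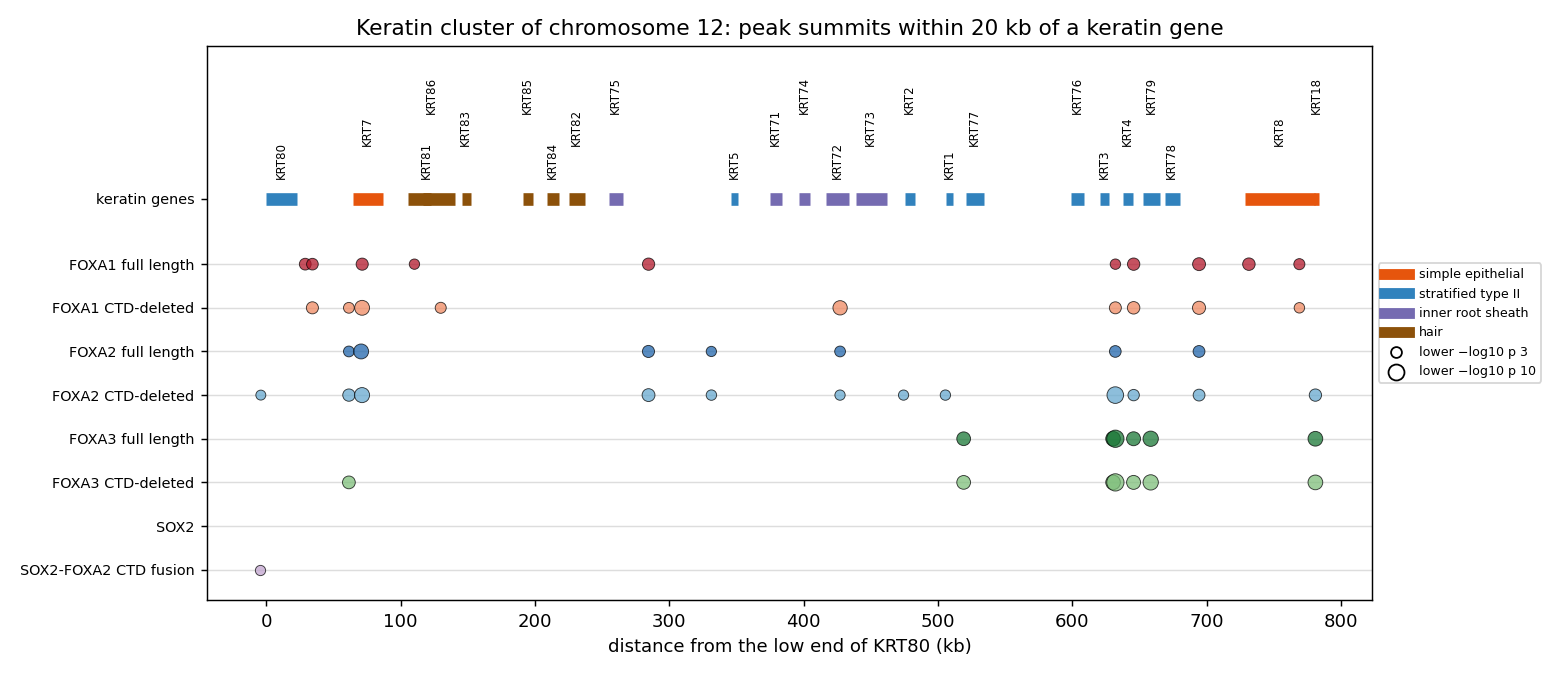
Peak summits within 20 kb of a keratin gene on chromosome 12, by list, against the distance from the low end of KRT80; circle area grows with the lower −log10 p of both replicates and gene bars are coloured by role. The FOXA3 summits gather over KRT77 to KRT79 and at KRT18, and no summit lies near KRT85, KRT84, KRT82, KRT71 or KRT74.

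In the inner root sheath group, whose proteins shape the growing hair, 7 of 9 genes had a peak in any list, near the 78.7% of all protein-coding genes, and KRT71 and KRT74 had none. FOXA1 reached 4 at full length and 6 without the CTD, both FOXA2 lists 6, and FOXA3 0. KRT25 had a site 30 bp inside its low-coordinate end, the 3′ end of this minus-strand gene, at chr17:40747738-40748448. Values were 6.48 and 9.38 with FOXA1, 6.43 and 11.7 with CTD-deleted FOXA1, 3.02 and 3.25 with FOXA2, and 2.71 and 3.04 with CTD-deleted FOXA2. It was the strongest keratin peak of FOXA1 at full length, rank 5846 of 37532. KRT72 carried an intragenic site (chr12:52595188-52596510) that was strong with CTD-deleted FOXA1 (7.49 and 15.7), held by both FOXA2 lists (2.96 and 4.99, then 2.42 and 13.4 without the CTD) and absent with FOXA1 at full length. CTD-deleted FOXA1 alone also had a peak within KRT25 (4.09 and 7.54) and one within KRT27 (4.33 and 5.38). The site 3784 bp from KRT28 was in all 4 FOXA1 and FOXA2 lists at strengths of 2.20 to 4.06.

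Of the 10 stratified type I keratins, 6 had a peak in at least 1 list, against 78.7% of all protein-coding genes. FOXA1 reached 4 at full length and 2 without the CTD, FOXA2 2 and 1, FOXA3 0, and the fusion 2. KRT10 had an intragenic site 891 to 973 bp downstream of its start, at chr17:40821119-40822168, over the antisense gene KRT10-AS1 as well. It was found with CTD-deleted FOXA1 (4.99 and 11.7), FOXA2 (4.06 and 6.44) and CTD-deleted FOXA2 (4.74 and 17.03). No FOXA list had a peak within 20 kb of KRT14, the type I partner of KRT5 in basal epidermis, or of KRT16 and KRT17, which are induced in wounded epidermis. The nearest FOXA summit to KRT14 was 61264 bp away. KRT12, KRT24 and KRT9 also had no FOXA peak.

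Of the 15 hair keratins, which build the hard fibre of hair and nail, 5 had a peak in any list, against 78.7% of all protein-coding genes. They were KRT86, KRT81, KRT83, KRT39 and KRT40. FOXA1 reached 3 at full length and 4 without the CTD, FOXA2 1 and 2, and FOXA3 0. The peak over KRT86-AS2 was one of the weakest of FOXA1 at full length (2.48 and 7.18, rank 37297 of 37532), and CTD-deleted FOXA1 had another peak within KRT86 (3.23 and 8.41). KRT222, a keratin-like gene grouped with none of these, had 1 peak with FOXA1 at full length (3.13 and 4.10).

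Peaks were unevenly spread along chromosome 17. The stretch from KRT25 to KRT40 (279 kb, 10 genes) held 9 of the 12 chromosome 17 sites. The stretch from KRT34 to KRT17 (287 kb, 14 genes), which holds most type I hair keratins and KRT13 to KRT17, held 2 sites, 1 peak of FOXA1 at full length near KRT15 and 1 of the fusion near KRT14. Between the KRT39 site and the KRT15 site no FOXA peak lay within 20 kb of a keratin gene over 558 kb. The keratin-associated protein genes fill part of that interval, and 5 FOXA peaks lay there outside the keratin windows. Peak density in the chromosome 17 windows was 9.16 per Mb with FOXA1 against 15.3 over the coding windows of that chromosome, and 7.63 against 16.5 with FOXA2. Without the CTD these were 10.7 against 15.5 for FOXA1 and 7.63 against 19.1 for FOXA2. On chromosome 12 the values were 13.3 against 13.6 with FOXA1 and 9.34 against 17.2 with FOXA2. Without the CTD they were 12.01 against 16.7 for FOXA1 and 16.0 against 19.02 for FOXA2. FOXA3 had 8.00 against 2.05 on chromosome 12 at full length and 9.34 against 2.45 without the CTD. On chromosome 17 it had 0 and 1 peak.

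**Figure D3:**
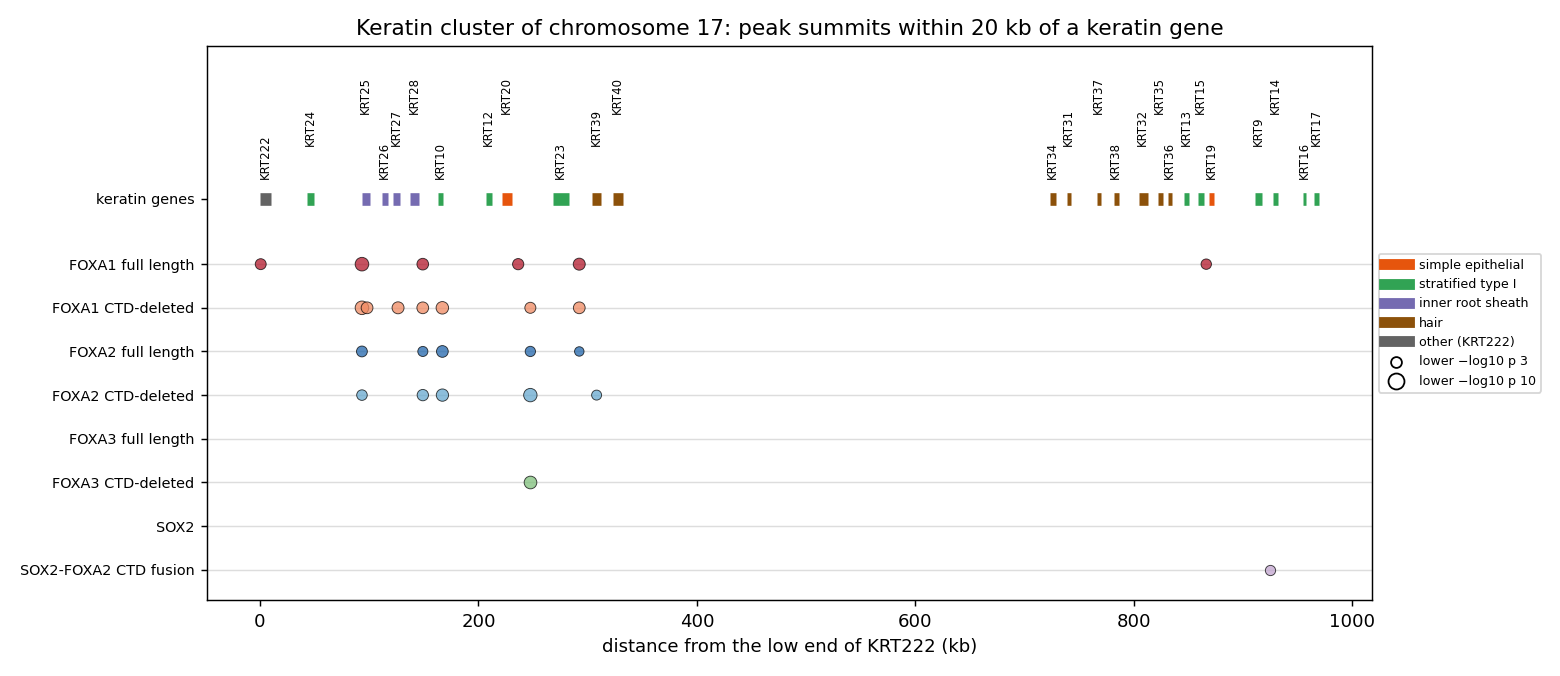
Peak summits within 20 kb of a keratin gene on chromosome 17, by list, against the distance from the low end of KRT222; circle area grows with the lower −log10 p of both replicates. From KRT34 to KRT17 there are only 1 summit of FOXA1 at full length and 1 of the fusion.

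Of the 33 sites, 20 (60.6%) were in at least 2 lists, against 45.6% of all merged sites. Leaving out the FOXA3 full-length list, whose rows repeat the CTD-deleted list, gave 17 (51.5%) against 45.3%. Among the 20 sites, 18 (90%) had all summits within 100 bp of each other, against 68.3% of the recurring sites of all chromosomes. The median spread was 41 bp against 62 bp. Without the FOXA3 full-length list, whose copied rows have no spread, 15 of 17 (88.2%) lay within 100 bp, against 68.2%, and the medians were 47 and 62 bp. In all, 23 sites had a FOXA1 peak, 18 a FOXA2 peak, 12 both and 8 a FOXA3 peak. The summit lay over a keratin gene at 14 of the 33 sites, and at 31 a keratin of this set was also the nearest protein-coding gene. The exceptions were nearest to KRT6B and KRT6A, whose symbols end in a letter.

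**Figure D4:**
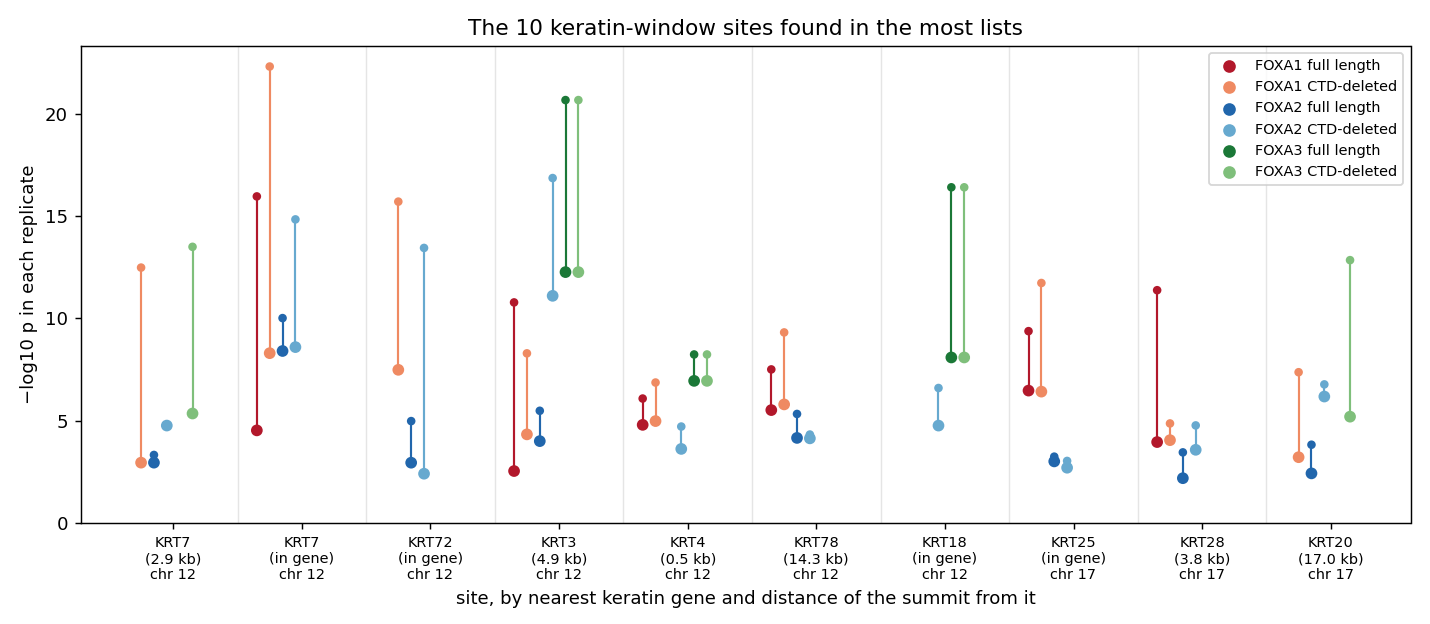
The −log10 p of both replicates (small and large points joined by a line, the larger point being the lower value) in each FOXA list for the 10 sites found in the most lists. The KRT3 site is held by 6 lists, and within the FOXA3 lists it is the highest of these sites (12.3 and 20.7). Library depth is unknown, so heights compare sites within a list only.

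Each FOXA1 list held 16 keratin peaks, while the CTD-deleted list was 1.35 times as long on chromosomes 1 to 22 and X. As a share of the list, keratin peaks were 0.0430% (Wilson 95% interval 0.0265 to 0.0698) at full length and 0.0319% (0.0197 to 0.0519) after deletion. The difference was -0.0111 percentage points with a Newcombe interval of -0.0406 to 0.0148, which includes no difference. In each list 9 of 16 keratin peaks (56.3%, 33.2 to 76.9) overlapped a peak of the other, against 56.0% and 41.7% of the peaks elsewhere. The strongest keratin peaks that the other list lacked were those within KRT8 (4.99 and 8.48) and 1327 bp from KRT6B, in the window of KRT75 (4.72 and 13.8), at full length, and those within KRT72 (7.49 and 15.7) and KRT10 (4.99 and 11.7) after deletion.

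Agreement between replicates is given in these lists by the IDR, the irreproducible discovery rate. The 2 FOXA1 lists reach down to different limits, an IDR of 0.1995 at full length and 0.0501 without the CTD. The equal keratin counts and the ratio of list lengths given above therefore depend on unequal limits. With both lists held to 0.0501, there were 5 keratin peaks among 11445 at full length and 16 among 50105 without the CTD. The difference was then -0.0118 points (-0.0716 to 0.0202). At full length 0 of 16 keratin peaks had an IDR of at most 0.01, against 9.15% of the whole list. After CTD deletion 9 of 16 (56.3%) did, near the 53.1% of that list.

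FOXA2 had 12 keratin peaks at full length and 17 after CTD deletion, or 0.0269% (0.0154 to 0.0470) and 0.0322% (0.0201 to 0.0515) of the lists. The difference of 0.00527 percentage points had an interval of -0.0182 to 0.0278. The FOXA2 lists also reach down to different limits, an IDR of 0.35 at full length and 0.251 without the CTD. With both held to 0.251 the counts were 11 and 17, and the difference was -0.0031 points (-0.0335 to 0.0217). Of the 12 full-length keratin peaks, 11 (91.7%, 64.6 to 98.5) overlapped a CTD-deleted one by at least 1 bp, against 51.2% elsewhere in that list. With overlap by 50% of both peaks it was 9 of 12 (75%, 46.8 to 91.1). With summits within 100 bp it was 10 of 12 (83.3%, 55.2 to 95.3). The share elsewhere was not computed for these stricter settings. Of the 17 CTD-deleted peaks 11 (64.7%, 41.3 to 82.7) overlapped a full-length one, against 43.2% elsewhere. The lone full-length peak without a counterpart was the one near KRT23 (1.59 and 3.23). The strongest of the CTD-deleted list without one were those within KRT18 (4.77 and 6.61) and upstream of KRT4 (3.63 and 4.72). At full length 10 of the 12 keratin peaks were stronger than the median peak of the list, at a median percentile of 75.4 (range 11.1 to 98.6). After deletion 10 of 17 were and 7 were not, at a median percentile of 68.2 (range 1.34 to 97.9). For FOXA1 the median percentiles were 47.4 and 49.5, and for FOXA3 52.2 and 44.1.

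The FOXA3 lists give no CTD comparison here. All 6 keratin peaks of the full-length list were exact copies of rows in the CTD-deleted list. Such rows make up 5012 of the 6130 in that list. The 1118 rows of its own held 0 keratin peaks. The CTD-deleted list had 2 more, the outer KRT7 site and the KRT20 site. As shares, FOXA3 had 0.0987% (0.0452 to 0.215) and 0.118% (0.0600 to 0.233) of its peaks in keratin windows.

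Between factors, 7 of the 16 keratin peaks of FOXA1 (43.8%, 23.1 to 66.8) were also FOXA2 peaks at full length, against 47.2% elsewhere, and the 7 made up 58.3% (32.0 to 80.7) of the 12 FOXA2 peaks, against 39.5%. Without the CTDs 10 peaks were shared, 62.5% (38.6 to 81.5) of those of FOXA1 and 58.8% (36.0 to 78.4) of those of FOXA2, against 45.7% and 43.3%. Of the 8 CTD-deleted FOXA3 peaks, 4 overlapped a FOXA1 and 5 a FOXA2 CTD-deleted peak, or 50.0% and 62.5%, against 69.3% and 78.5% elsewhere.

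The SOX2 list had 0 keratin peaks among 1365 on chromosomes 1 to 22 and X. It allows a share of up to 0.220% by the limit of 3 counts. By the Wilson interval used for the other lists, the upper limit was 0.281%. Only 5.86% of the SOX2 peaks lay within 20 kb of any protein-coding gene, against 46.8% of the fusion peaks. The 0 is therefore not a result particular to keratin genes. The fusion had 2 of 7844, or 0.0255% (0.00699 to 0.0929), and the difference of 0.0255 points had an interval of -0.256 to 0.0929. These 2 lists reach down to different limits, an IDR of 0.1 for SOX2 and 0.912 for the fusion. With both held to an IDR of 0.1, the fusion list had 774 peaks and 0 keratin peaks, and the difference was 0. Both fusion peaks were weak. The peak 4814 bp from KRT80 (2.41 and 3.29), with an IDR of 0.832, overlapped a CTD-deleted FOXA2 peak. Their summits lay 646 bp apart, and that FOXA2 peak was weak, ranking 51983 of 53415 in its list. The fusion peak 2505 bp from KRT14 (2.41 and 4.27), with an IDR of 0.724, overlapped none. The lists of the first replicate alone were longer and held 2 keratin peaks for SOX2 and 12 for the fusion, near 4 (8.00%) and 17 (34.0%) of the keratin genes, against 22.1% and 51.4% of all protein-coding genes. Both had a peak at the KRT25 site, with the authors' fold enrichment at 4.04 for SOX2 and 4.29 for the fusion, and both had one near KRT74, at 4.12 and 3.24. The −log10 q of the authors was low, at 0.755 and 1.38 for the KRT25 peaks and 0.757 and 0.0967 for the KRT74 peaks. It was 0 for 5 of the 12 fusion peaks. None of these 14 peaks was in the combined list of its factor. Conversely, neither combined fusion keratin peak overlapped any of the 12 first-replicate fusion peaks. These fusion lists therefore had no position in common in the keratin windows.

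Other epithelial genes, from lists chosen by function, were set beside the keratins. Of the 26 desmosome and cornified envelope genes, 12 had a peak with FOXA1 and 12 with CTD-deleted FOXA1, 16 with FOXA2 and 10 with CTD-deleted FOXA2, against the same backgrounds of 55.6%, 54.0%, 59.5% and 61.1%. Their peaks per Mb were 12.8, 15.8, 13.97 and 15.8 in that order. Of 17 epithelial regulators, such as TP63, 12, 12, 13 and 13 had a peak, at 16.7, 17.4, 19.2 and 26.1 peaks per Mb. TP63, the master regulator of stratified epithelia, had 6, 11, 9 and 9 peaks within 20 kb, and KLF5 had 0 in every list. These counts for single genes take no account of gene length. Of 15 intermediate filament genes other than keratins, 9, 8, 9 and 8 had a peak, and the vimentin gene VIM had 1 peak, with FOXA2 at full length. The 34 keratin-associated protein genes of chromosome 17 had fewer: 2, 8, 0 and 3 genes had a peak, at 2.76, 5.52, 0 and 5.52 peaks per Mb. The 5 letter-suffix keratins had a peak at 2, 0, 3 and 3 genes, all of them KRT6A, KRT6B or KRT6C, and KRT33A and KRT33B had none. In both lists FOXA3 peaks lay near 2 desmosome or envelope genes (7.69%), 4 regulators (23.5%) and 3 other filament genes (20%). The FOXA3 backgrounds were 16.2% of all protein-coding genes at full length and 18.4% without the CTD. No keratin-associated or letter-suffix gene had a FOXA3 peak within 20 kb.

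The 20 kb limit passed through few peaks. The farthest members lay 19053 to 19129 bp from KRT75, with KRT6B nearer, and the nearest peaks left out lay 22394 bp from KRT78 (2.86 and 3.14) and 24663 bp from KRT222 (3.24 and 3.63), both with CTD-deleted FOXA2.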

How the data were processed

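The labels' protocols describe Flag ChIP-seq of U2OS lines, 150-base paired reads. The submitters' processing notes name build hg38, Bowtie2 2.4.4, SAMtools 0.1.18 and MACS2, with no roles. Of 14 deposited files 10 were used; 4 copied others. The 8 combined lists have the IDR program's layout. Used were the deposited −log10 p of each replicate (columns without replicate numbers), the deposited −log10 IDR and the authors' score (830 marks an IDR of 0.01). The first-replicate lists carry the authors' fold enrichment, a ratio. The p-value limit, IDR limit and control are not given in the sources used here. Summits were joined to RefSeq GRCh38.p14 gene ends (no exons) on chromosomes 1 to 22 and X. Peaks overlapping by 1 bp were shared. Python 3.11.15, pandas 2.3.3 and statsmodels 0.14.6 gave counts and intervals, checked on simulated data. Chromosome lengths were not used here, so density per Mb of coding window replaced the planned share of chromosome length.

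Members, gene lists and alternatives were chosen with earlier results of these data known. Every keratin gene was accounted for by role; sites given in detail were up to 10 found in the most lists and the 2 strongest peaks of each list that its pair lacks. Other sites and genes were named after their values were seen. Doxycycline is 500 ng/ml in the treatment labels and per µl in the extraction protocol. Alternatives were an IDR of at most 0.01, the stricter IDR limit of each pair, windows of 5 and 50 kb, the letter-suffix keratins added, overlap by 50% of both peaks or summits within 100 bp, the first-replicate lists, leaving out FOXA3 rows that both lists share, equal numbers of the strongest peaks and a −log10 p of at least 5 in both replicates.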

Additional observations from a re-analysis of the deposited data

How the results depend on the processing

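Under 108 alternative values of 27 results, 87 stayed within the interval of the reported value (counts of genes within 1.5 times) and 21 moved further. No difference between lists of a pair had an interval without 0, and signs turned under some settings: the FOXA2 difference was -0.0031 percentage points with both lists held to the stricter IDR limit and the FOXA1 difference 0.00446 at a −log10 p of at least 5. An IDR of at most 0.01 left 0 keratin peaks, 0% of the list and 0 genes for FOXA1 at full length and for the fusion, 12 genes for CTD-deleted FOXA1 and 3 for CTD-deleted FOXA2; fewer peaks pass by construction. It turned the FOXA1 difference from -0.0111 to 0.0338 percentage points, both with intervals that include 0, and made the shared CTD-deleted FOXA1 peaks 0%. That 0% follows from the FOXA1 full-length list, which keeps no keratin peak at an IDR of at most 0.01. No FOXA2 full-length peak passes this limit, so it gave no value there. Summits within 5 kb left 10, 10, 6 and 13 genes for FOXA1, CTD-deleted FOXA1, FOXA2 and CTD-deleted FOXA2. Summits within 50 kb gave 29 genes for FOXA2, 16 for CTD-deleted FOXA3 and 5 for the fusion. For gene counts at 5 kb, 50 kb or an IDR of at most 0.01, the share of all protein-coding genes was not computed. Those counts therefore do not show whether keratin genes changed relative to genes in general. Without the identical rows FOXA3 at full length had 0% and 0 genes, and 0% of the CTD-deleted keratin peaks were shared. This setting fixes these values in advance, because every full-length FOXA3 keratin peak is an identical row. They count among the 21 that moved. With equal numbers of the strongest peaks, chosen after seeing the data like the limit on p of 5, 100% of the CTD-deleted FOXA3 keratin peaks were shared. The lists of the first replicate alone gave 4 genes for SOX2 and 17 for the fusion. No paired analysis was possible because each group has 1 combined list. With 0 to 17 keratin peaks per list, only large differences could be seen.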
